A study of Mus musculus with 6 samples.

Results

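Spermiogenesis is the last part of sperm formation, in which round haploid cells become sperm, and DNA methylation was read at 40 genes that build the sperm nucleus, acrosome, tail and energy supply. The members are a list of gene names, and every cytosine of a CpG inside the gene or within 1 kb of either end was used when it was read at least 10 times in all 6 libraries. Genes with 3 or more such cytosines counted as measured. Of the 40 members, 30 were measured, out of 28766 measured genes in all. Together they hold 1653 cytosines. No cytosine was listed in any library for Prm2, Prm3, Acrv1, Odf1, Smcp, Oaz3, Pgk2 and Crisp2. Tnp2 had 8 cytosines listed in some libraries and 0 in all, and Spem1 had 2 in all, so neither entered the comparisons.

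The libraries came from male germ cells of mice and were made by reduced representation bisulfite sequencing (RRBS), in which only fragments cut out by a restriction enzyme are sequenced, so that CpG-rich DNA is read most. There were 3 libraries of the chronic social defeat stress group (CSDS), a model in which a mouse is repeatedly attacked by a dominant aggressor, and 3 of the Control group. The labels give no strain, age, stage of the germ cells or time of exposure. Whether each library is from a different animal is not given either, so p-values here rest on the spread between libraries, which may be technical. The question is whether the exposure goes with a change of methylation in the germ line.

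A level here is the percent of reads that show C at a cytosine, averaged over the cytosines of a gene with equal weight, and differences are CSDS minus Control in percentage points. A level in bulk DNA averages over germ cells of all stages and any other cells, so a change in the mix of cells and a change within cells cannot be told apart. CSDS libraries listed 2671515 to 3156788 cytosines with a median coverage of 44 to 48 reads, and Control libraries listed 2420308 to 2638404 with 46 to 50 reads. At 27 CpG cytosines of mitochondrial DNA, which is largely unmethylated, the median share read as C was 8.50%, 4.41% and 4.53% in CSDS replicates 1, 2 and 3 and 8.90%, 8.84% and 10.04% in Control replicates 1, 2 and 3. CSDS replicates 2 and 3 therefore stood apart from the other 4 libraries. At the starts of 26 housekeeping genes the median levels were 13.3%, 7.92% and 9.66% in CSDS libraries and 14.3%, 14.5% and 13.9% in Control libraries, with the same 2 libraries lowest. The main results are therefore given as deposited and after a correction, in which the unmethylated share was divided by 1 minus the library's mitochondrial share. Whether incomplete conversion produced these differences was not tested. Imprinted regions were read as a check of the cell type, since paternal imprints are methylated and maternal ones unmethylated in male germ cells. The paternally methylated regions at H19, Meg3 and Rasgrf1 averaged 95%, 96.2% and 89.3% in CSDS and 97.9%, 98% and 89.8% in Control. Maternally methylated genes (Peg3, Kcnq1ot1, Plagl1, Peg10 and Nnat) averaged 8.44% to 20.3% at their starts in CSDS and 11.1% to 22.4% in Control.

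During spermiogenesis, transition proteins and then protamines replace most histones and pack the DNA tightly, the acrosome grows from Golgi vesicles over the nucleus, and the flagellum is built and sheathed. Many of these genes are transcribed only in spermatids, and several produce mRNAs that are stored and translated days later. Methylated CpG-rich starts are generally silent in mammals. Many testis-specific genes instead have CpG-poor starts, whose methylation is a weaker guide to activity.

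The starts of the members ranged from nearly free of CpGs to dense in them, and 5 of them show that range. Each sequence covers 250 bases before to 50 bases after the start on the gene's own strand, from RefSeq on GRCm38.p6, with every CpG in capitals. Prm1 has 1 CpG in this stretch and Tnp1 has 6, and both count as CpG-poor. Zpbp has 7 and is likewise CpG-poor. Slc25a31 has 22 and Odf2 has 26, and both are CpG-rich, defined here as a GC share of at least 0.5 with a CpG count of at least 0.6 of that expected from the base composition.
Prm1, chr16:10796774-10797073, minus strand: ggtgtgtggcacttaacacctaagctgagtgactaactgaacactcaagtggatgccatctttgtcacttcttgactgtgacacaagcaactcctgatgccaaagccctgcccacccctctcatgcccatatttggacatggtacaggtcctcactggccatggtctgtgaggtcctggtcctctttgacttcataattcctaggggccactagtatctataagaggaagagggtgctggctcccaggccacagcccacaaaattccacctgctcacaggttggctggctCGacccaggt
Tnp1, chr1:73015850-73016149, minus strand: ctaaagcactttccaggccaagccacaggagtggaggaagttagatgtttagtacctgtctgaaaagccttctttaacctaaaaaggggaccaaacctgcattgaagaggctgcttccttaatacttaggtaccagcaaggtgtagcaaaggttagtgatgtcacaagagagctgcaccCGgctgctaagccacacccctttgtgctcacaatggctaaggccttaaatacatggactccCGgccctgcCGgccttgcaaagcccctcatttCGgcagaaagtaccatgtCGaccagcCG
Zpbp, chr11:11462370-11462669, minus strand: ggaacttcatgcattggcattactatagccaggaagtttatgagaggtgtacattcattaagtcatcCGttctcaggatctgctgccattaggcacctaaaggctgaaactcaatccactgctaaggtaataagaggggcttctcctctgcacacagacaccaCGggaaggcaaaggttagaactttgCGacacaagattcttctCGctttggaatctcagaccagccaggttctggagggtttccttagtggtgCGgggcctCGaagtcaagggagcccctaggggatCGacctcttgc
Slc25a31, chr3:40708621-40708920, plus strand: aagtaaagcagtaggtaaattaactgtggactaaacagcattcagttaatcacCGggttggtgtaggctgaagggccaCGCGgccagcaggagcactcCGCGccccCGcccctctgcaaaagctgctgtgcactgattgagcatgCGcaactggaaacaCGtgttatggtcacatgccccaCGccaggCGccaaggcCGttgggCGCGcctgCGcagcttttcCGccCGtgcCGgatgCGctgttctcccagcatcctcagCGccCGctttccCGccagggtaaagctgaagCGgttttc
Odf2, chr2:29889470-29889769, plus strand: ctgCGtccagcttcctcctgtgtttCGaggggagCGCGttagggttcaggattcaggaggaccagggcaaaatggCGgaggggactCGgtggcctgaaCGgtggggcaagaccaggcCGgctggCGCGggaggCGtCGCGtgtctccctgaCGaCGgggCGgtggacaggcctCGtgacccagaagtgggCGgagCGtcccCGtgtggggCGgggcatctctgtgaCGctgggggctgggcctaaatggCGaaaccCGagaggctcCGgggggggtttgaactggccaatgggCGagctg

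In the Tnp1 sequence 12 cytosines were read. They averaged 31.9%, 33.3% and 30.7% in CSDS libraries and 34.5%, 34.3% and 34.8% in Control libraries. In the Slc25a31 sequence 22 cytosines averaged 20.1%, 13.2% and 12.2% in CSDS and 22.8%, 22.4% and 45.8% in Control, where replicate 3 stood far above the rest. In the Odf2 sequence 32 cytosines averaged 27.9%, 10.2% and 6.03% in CSDS and 9.65%, 8.84% and 14.3% in Control, and here CSDS replicate 1 was the highest. No cytosine inside the Prm1 and Zpbp sequences was listed in all libraries, and their values come from CpGs further into the gene, 76 to 183 bases and 161 to 246 bases after the start. The motif TGACGTCA, to which the spermatid activator CREM and its relatives bind, occurred in 1 of 35 member promoters with a sequence, that of Izumo1, against 1.85% of 27025 promoters. The shorter TGACG, which TGACGTCA contains, occurred on either strand in 11 of the 35, against 20.9% of all. Cytosines at these matches were listed in all libraries only for Odf2, where 4 cytosines at 2 matches averaged 13.2% and 10.4%.

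CpG-rich starts of the members had low mean levels, and none was highly methylated. A start window is 1 kb either side of the start. The 7 measured CpG-rich windows, of 9 members in this class, had mean levels between 10.8% and 24.9%, and 4 of them (57.1%) were under 20%, against 93.3% of 11425 CpG-rich starts in all. Brdt lay just above that limit at 20.1%, and Slc25a31 fell to 17.7% without the CpGs described below whose strands differ. The median level of the 7 windows was 16.3% ± 3.14 in CSDS and 18.1% ± 1.2 in Control (SD, n = 3 each), while that of all CpG-rich starts was 10.3% ± 2.49 and 13.9% ± 0.241. All 7 were lower in CSDS by their means as deposited, with a median difference of −3.93 points, beside −3.44 points for all genes of the class. The members' median was −5.51 points without CSDS replicate 1 and −2.55 points without CSDS replicate 3. After the mitochondrial correction 5 of the 7 were lower and the median difference was −0.90 points, beside −0.20 points for all.

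CpG-poor starts of the members fell into separate ranges. Of 14 measured windows, 7 (50%) were over 80% methylated, against 32.0% of 10547 CpG-poor starts in all, 4 were under 20%, and 3 lay between, with a range from 8.48% to 95.97%. The highly methylated ones were those of Prm1, Catsper1, Izumo1, Klhl10, Catsper3, Meig1 and Tssk1. The low ones were those of Zpbp, Crem, Tssk6 and Tssk3. These levels hold for the start used. Meig1 has a further annotated start in a low stretch, and the annotated Klhl10 gene begins upstream of the start used. For Catsper1 no strand was listed, and its start was assumed to be the gene end with more listed cytosines. The class of Crem is doubtful, since it has no promoter sequence here and was placed by the listed cytosines within 250 bases of its assumed start, while 114 lie within 1 kb. The median level was 74.7% ± 2.53 in CSDS and 74.8% ± 6.42 in Control (SD, n = 3 each), while that of all CpG-poor starts was 28.6% ± 2.60 and 32.1% ± 0.473. By mean level over the 6 libraries no member window lay between Gapdhs at 62.8% and Prm1 at 89.0%. The members' median falls in this gap and describes no typical member. As deposited 10 of 14 were lower in CSDS, with a median difference of −2.39 points, beside −2.79 points for all. Without CSDS replicate 2 it was −0.63 points. After the mitochondrial correction 8 of 14 were lower, with a median of −0.29 points, beside −0.53 points for all.

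**Figure D1:**
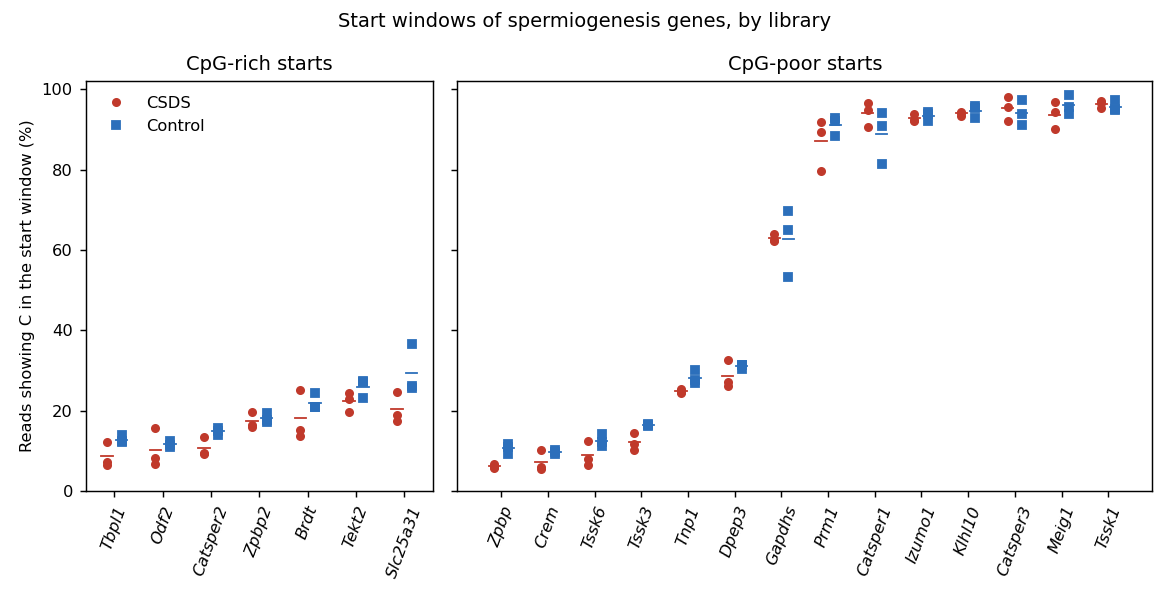
Percent of reads showing C in the start window (vertical axis, linear) of the 21 members with a measured window, CpG-rich starts on the left and CpG-poor on the right, ordered by level. Red circles are the 3 CSDS libraries, blue squares the 3 Control libraries and short lines the group means; CpG-rich starts lie under 40%, while CpG-poor starts run from 8.48% (Zpbp) to 95.97% (Tssk1).

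Among the genes that pack sperm chromatin, Prm1 was highly methylated and Tnp1 was mostly unmethylated. Prm1 (gene 19118, chromosome 16 from 10796332 to 10796823) encodes protamine 1, the small arginine-rich protein that replaces histones in sperm. Its 21 cytosines averaged 91.9%, 79.7% and 89.4% in CSDS libraries and 88.3%, 92.0% and 92.8% in Control libraries. The groups overlapped, and CSDS replicate 2 alone was low. The difference was −3.98 points, −0.34 points without that library and −6.42 points without CSDS replicate 1. Tnp1 (gene 21958, chromosome 1 from 73015074 to 73015899) encodes transition protein 1, which precedes the protamines on the DNA. It stood at 25.5%, 24.3% and 24.6% in CSDS and at 26.8%, 27.7% and 30.1% in Control over 26 cytosines. Every CSDS library lay below every Control library. The difference was −3.39 points, and −0.73 points after the mitochondrial correction, when the groups overlapped. Those 26 cytosines also lie within 1 kb of the start of the noncoding gene 1700027A15Rik, so they cannot be assigned to Tnp1 alone.

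The genes of the acrosome and sperm head were highly methylated apart from the starts of Zpbp and Zpbp2. Both encode acrosomal matrix proteins that bind the coat of the egg, and each had an unmethylated start in an otherwise methylated gene. The Zpbp start (gene 53604, chromosome 11 from 11279624 to 11464223) stood at 6.82%, 5.77% and 6.17% in CSDS and at 11%, 9.31% and 11.8% in Control over 29 cytosines. All CSDS libraries were lower than all Control libraries. The difference was −4.46 points (unadjusted p = 0.0065, adjusted p = 0.151 in the quasi-binomial model), and −1.17 points after the mitochondrial correction, with overlapping groups and a corrected level of −1.84%, below 0, in CSDS replicate 1. The other 69 cytosines of Zpbp averaged 95.6% ± 0.506 in CSDS and 95.4% ± 0.584 in Control (SD, n = 3 each). The Zpbp2 start stood at 19.8%, 16.0% and 16.4% in CSDS and at 17.8%, 17.1% and 19.5% in Control over 14 cytosines. As deposited the groups overlapped, with a difference of −0.69 points that ran from −1.89 to +0.0047 points with a library left out. After the mitochondrial correction every CSDS library lay above every Control library, at +2.56 points, and the 10 other cytosines of the gene lay below, at −1.63 points.

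Spata16 and Dpy19l2, both needed for a normal acrosome, differed in opposite directions, and neither passed the test. Spata16 (gene 70862, chromosome 3 from 26637620 to 26983249), a Golgi protein of the forming acrosome, stood at 89.1%, 89.5% and 86.1% in CSDS and at 90.0%, 90.7% and 90.5% in Control over 106 cytosines. Its groups did not overlap as deposited (−2.20 points, unadjusted p = 0.062, adjusted p = 0.177) or after the mitochondrial correction (−1.94 points), and without CSDS replicate 3 the deposited difference was −1.14 points. Dpy19l2 (gene 320752, chromosome 9 from 24557047 to 24696457) anchors the acrosome to the nuclear envelope. It stood at 92.2%, 93.2% and 92.6% in CSDS and at 91.5%, 89.2% and 91.0% in Control over 14 cytosines, all in the gene body. Every CSDS library was higher, by +2.06 points as deposited (unadjusted p = 0.223, adjusted p = 0.364), +1.36 points without Control replicate 2 and +2.55 points corrected. The rest of the group had overlapping libraries. Acr, the acrosomal protease acrosin, averaged 96.2% ± 0.506 in CSDS and 95.5% ± 0.603 in Control. Spaca1, an acrosomal membrane protein, averaged 89.7% ± 3.30 and 90.4% ± 2.52. Izumo1, the sperm protein that binds the egg receptor Juno, averaged 79.2% ± 1.19 and 81.2% ± 1.5 (SD, n = 3 each). Its 5 cytosines near the start stood at 92.7% ± 1.03 in CSDS and 93.4% ± 1.12 in Control, while 6 that lie near the start of the neighbouring Rasip1 stood at 52.8% ± 2.38 and 57.4% ± 1.96. Of these 6, 4 belong to 2 CpGs whose strands read far apart, described below, and the limit given there applies.

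The 4 genes of the CatSper calcium channel, which admits calcium for the vigorous tail beat before fertilisation, differed in level. Catsper2 (gene 212670, chromosome 2 from 121391633 to 121414598) has a CpG-rich start whose 119 cytosines all lie within 1 kb of the start of Pdia3 too. This window stood at 13.4%, 9.33% and 9.48% in CSDS and at 15.7%, 15% and 14.1% in Control. The groups did not overlap (−4.17 points, unadjusted p = 0.0133, adjusted p = 0.151), but did after the mitochondrial correction (−0.99 points). The 14 cytosines in the rest of Catsper2 averaged 94.0% ± 0.281 in CSDS and 94.0% ± 0.924 in Control. The other 3 genes had mean levels of about 90% or more, and Catsper4 had no cytosine near its start. Catsper4 stood at 95%, 90.9% and 94.5% in CSDS and at 92.4%, 95.9% and 94.5% in Control over 11 cytosines. Its difference of −0.80 points turned to +0.48 points without CSDS replicate 2. Catsper1 averaged 90.0% ± 1.65 in CSDS and 90.0% ± 1.51 in Control over 15 cytosines. Its start was assumed to be the gene end with more listed cytosines and may be the other end of the gene. The 4 cytosines near it stood at 90.5%, 94.9% and 96.5% in CSDS and at 94.1%, 81.5% and 90.9% in Control. The groups overlapped at a difference of +5.14 points (unadjusted p = 0.376, adjusted p = 0.498), and the other 11 cytosines of Catsper1 differed by −1.83 points. Catsper3 averaged 93.4% ± 0.617 in CSDS and 93.5% ± 0.142 in Control over 39 cytosines (SD, n = 3 each).

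Among the genes of the tail and its assembly, the tektins, filament proteins of the flagellar microtubules, had intermediate mean levels over a mix of low and high cytosines. Of 71 cytosines in Tekt2, 39 were under 20% and 12 over 80%, and of 22 in Tekt1, 10 were under 20% and 10 over 80%. Tekt2 (gene 24084, chromosome 4 from 126322121 to 126325688) stood at 36.7%, 34.7% and 33.0% in CSDS and at 37.7%, 37.5% and 39.1% in Control over 71 cytosines. The groups did not overlap (−3.28 points, unadjusted p = 0.0352, adjusted p = 0.150), but did after the mitochondrial correction (−0.99 points). Of these cytosines, 30 lie near the start of Adprhl2 and not near that of Tekt2, and they averaged 18.9% ± 2.22 in CSDS and 23.7% ± 2.26 in Control. The start window of Tekt2 itself stood at 24.6%, 23.0% and 19.8% in CSDS and at 27.2%, 23.1% and 27.4% in Control over 19 cytosines. Tekt1 (gene 21689, chromosome 11 from 72344717 to 72362442) had 22 cytosines, none near its start. It stood at 50.5%, 51.3% and 49.9% in CSDS and at 55.1%, 52.9% and 53.3% in Control, with groups apart. The difference was −3.17 points (unadjusted p = 0.157, adjusted p = 0.289), and −1.52 points corrected, when the groups overlapped.

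Odf2, a protein of the outer dense fibres that stiffen the tail, held 160 cytosines (gene 18286, chromosome 2 from 29889014 to 29931746). Its start window stood at 15.7%, 8.34% and 6.78% in CSDS and at 11.5%, 10.9% and 12.6% in Control over 123 cytosines. CSDS replicate 1 was above every Control library and the other 2 were below. The difference of −1.41 points was −4.11 points without CSDS replicate 1, and turned to +0.33 points without CSDS replicate 3 and to +2.11 points after the mitochondrial correction. The rest of Odf2 averaged 90.8% ± 1.23 in CSDS and 91.6% ± 0.847 in Control. Meig1 acts at the manchette, the microtubule skirt that shapes the sperm head and carries cargo to the tail. Around its outermost annotated start it showed the opposite layout. Its 3 start cytosines stood at 94.2%, 90.0% and 96.7% in CSDS and at 98.6%, 93.8% and 95.6% in Control. The other 50 cytosines of Meig1 stood at 15.4%, 11.1% and 10.2% in CSDS and at 14.1%, 14.6% and 17.3% in Control. This low stretch lies inside the gene region and away from the outermost start, which was the start used. The CpG at 3419228, in this stretch, lies inside another promoter sequence. No other gene has a listed start within 1 kb of it, so the stretch holds a further annotated start of Meig1. Akap3, which anchors protein kinase A in the fibrous sheath, averaged 86.4% ± 0.803 in CSDS and 88.7% ± 3.17 in Control over 16 cytosines (SD, n = 3 each).

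Slc25a31 had the largest difference of the 30 members. The gene (73333, chromosome 3 from 40708871 to 40726094) encodes the ADP and ATP carrier of germ cell mitochondria, known as ANT4, and all of its 50 cytosines lie in its CpG-rich start window. It stood at 24.8%, 19.1% and 17.5% in CSDS and at 26.1%, 25.6% and 36.6% in Control. No CSDS library reached the lowest Control library, and Control replicate 3 stood about 10 points above the other Control libraries. The difference was −9.0 points (unadjusted p = 0.0282, adjusted p = 0.145), −6.71 points after the mitochondrial correction with the groups still apart, and −5.43 points without Control replicate 3. Without CSDS replicate 1 it was −11.2 points with an adjusted p of 0.00873, the one setting in which a member was called. That setting used levels as deposited and called 272 gene regions in the series. It left CSDS replicates 2 and 3, whose mitochondrial shares of 4.41% and 4.53% were the lowest of the 6 libraries. A run of 8 forward-strand cytosines between 40708719 and 40708818 accounted for much of the excess of Control replicate 3. There each cytosine had 10 reads in that library, 8 of them with C, which gives 80% with a 95% Wilson interval of 49.0% to 94.3%. The same run averaged 14%, 8.07% and 12.5% in CSDS and 23.4% and 8.93% in Control replicates 1 and 2. The other 42 cytosines averaged 22.2% ± 4.26 in CSDS and 27.9% ± 1.15 in Control, a difference of −5.77 points (SD, n = 3 each). At these 42 the groups overlapped as deposited, with CSDS replicate 1 at 26.8% and Control replicate 1 at 26.6%. The separation of the groups over all 50 cytosines thus depends on the run of 8. This split was made after the values were seen.

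Slc25a31 is grouped with genes of sperm energy and membranes, of which Gapdhs was mostly unmethylated and Ldhc methylated. Gapdhs (gene 14447, chromosome 7 from 30729779 to 30744791), the sperm form of the glycolytic enzyme GAPDH, stood at 17.2%, 13.1% and 14.1% in CSDS and at 18.5%, 18.6% and 17.5% in Control over 76 cytosines. All CSDS libraries were below all Control libraries (−3.40 points, unadjusted p = 0.0304, adjusted p = 0.147), and after the mitochondrial correction they overlapped (−0.31 points). Of these, 72 lie near the start of Tmem147 and not near the Gapdhs start. The 4 at the start of Gapdhs averaged 62.9% ± 0.861 in CSDS and 62.7% ± 8.44 in Control. Ldhc, the sperm lactate dehydrogenase, averaged 95.5% ± 0.872 in CSDS and 95.9% ± 2.65 in Control over 8 cytosines. Dpep3, a membrane-bound dipeptidase, averaged 28.6% ± 3.43 and 31.1% ± 0.558 over 10 (SD, n = 3 each).

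**Figure D2:**
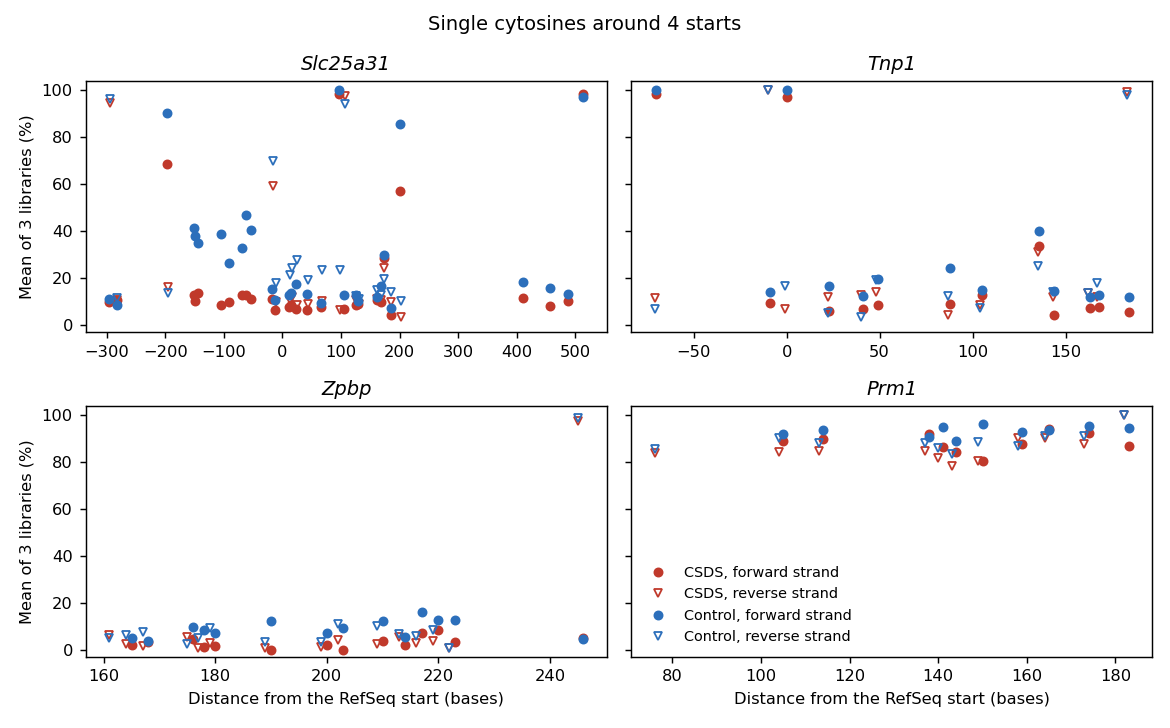
Mean percent of reads showing C over 3 libraries (vertical axis, linear) at each cytosine within 1 kb of 4 starts, by distance from the RefSeq start in bases. Red is CSDS and blue is Control, filled circles the forward and open triangles the reverse strand; at Slc25a31 the 8 forward-strand cytosines of the named run lie at 11.5% in CSDS and 37.5% in Control, while Prm1 is high at every cytosine and Zpbp is low at all but 1.

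The testis-specific kinases Tssk1, Tssk2, Tssk3 and Tssk6, which phosphorylate proteins of the forming sperm, split into a methylated and an unmethylated pair. The Tssk1 start window stood at 95.3%, 96.9% and 96.6% in CSDS and at 94.7%, 97.2% and 95.1% in Control over 19 cytosines. Its difference of +0.61 points ran from +0.14 to +1.36 points with a library left out, and turned to −5.04 points with a coverage minimum of 20. Tssk2 averaged 95.1% ± 3.97 in CSDS and 95.4% ± 2.01 in Control over 6 cytosines (SD, n = 3 each). Tssk3 (gene 58864, chromosome 4 from 129489008 to 129491730) stood at 20.9%, 16.6% and 18.2% in CSDS and at 21.3%, 21.8% and 22.7% in Control over 111 cytosines, with groups apart (−3.37 points, unadjusted p = 0.0225, adjusted p = 0.143). After the mitochondrial correction the difference was −0.43 points and the groups overlapped. Of its cytosines, 101 lie within 1 kb of the start of Fam229a. Tssk6 (gene 83984, chromosome 8 from 69902184 to 69903518), which is needed for sperm chromatin condensation in mice, stood at 12.8%, 6.54% and 8.0% in CSDS and at 14.2%, 12.1% and 11.5% in Control over 172 cytosines. CSDS replicate 1 lay within the Control range, and the difference was −3.45 points, or −0.11 points corrected. It was −5.30 points without CSDS replicate 1 and −2.16 points without CSDS replicate 2. At 149 of the 172 the start of Ndufa13 is also within 1 kb. Klhl10, the substrate adaptor of a ubiquitin ligase of spermatids, averaged 54.3% ± 0.902 in CSDS and 56.1% ± 1.97 in Control over 27 cytosines. Its 14 start cytosines averaged 93.95% ± 0.543 in CSDS and 94.6% ± 1.64 in Control. The 13 outside the start window, near the start of Nt5c3b, averaged 11.7% ± 2.42 and 14.7% ± 2.35.

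The 3 regulators of spermatid transcription all had low levels near their starts. Tbpl1, a relative of the TATA-binding protein (gene 237336, chromosome 10 from 22703877 to 22732666), stood at 13.9%, 8.47% and 9.13% in CSDS and at 14.1%, 13.95% and 15.6% in Control over 194 cytosines. The groups were apart by a narrow gap, CSDS replicate 1 lying just below the lowest Control library. The difference was −4.05 points (unadjusted p = 0.0304, adjusted p = 0.147), and −0.84 points corrected with overlapping groups. Brdt, a bromodomain protein that binds acetylated histones before they are removed, stood at 34.1%, 23.6% and 25.2% in CSDS and at 29.8%, 30.2% and 33.0% in Control over 17 cytosines. CSDS replicate 1 was the highest of all 6, and the difference of −3.36 points was −6.58 points without it and −1.36 points without CSDS replicate 2. Crem, the activator of many spermatid genes, has no promoter sequence in the table used here, and its start was taken as the gene end with more listed cytosines. That window stood at 10.3%, 5.64% and 5.98% in CSDS and at 9.39%, 9.67% and 10.2% in Control over 114 cytosines. The difference was −2.44 points as deposited with overlapping groups, −3.95 points without CSDS replicate 1 and −1.60 points without CSDS replicate 2. It was +1.06 points after the mitochondrial correction, when every CSDS library lay above every Control library (unadjusted p = 0.014, adjusted p = 0.632).

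Low stretches in several members were at starts shared with, or belonging to, a neighbouring gene. At Tnp1 and Catsper2 all cytosines of the start window lie near both starts. At Tssk6 149 lie near both and 21 near its own start only, at mean levels of 11.3% and 7.67%. At Tssk3 68 lie near both starts and 33 near that of Fam229a only, at mean levels of 14.3% and 9.49%. The annotated Tssk3 gene reaches to 129491730, upstream of the start used at 129490770, so these counts hold for the start used. At Gapdhs and part of Tekt2 the low cytosines lie near the neighbour's start only. At Klhl10 they lie near the start of Nt5c3b and outside the start window used. The annotated Klhl10 gene begins at 100441128, upstream of the start used at 100441924, and the low cytosines lie within 1 kb of that beginning too. At Zpbp, Zpbp2, Odf2, Tbpl1, Slc25a31, Dpep3, Brdt and Crem the low cytosines near the start were within 1 kb of no other start in the promoter table. Of the 1653 member cytosines, 1027 (62.1%) were under 20%, 500 (30.2%) over 80% and 126 between, beside 53.6% and 35.1% for all 2210988 cytosines of the series.

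Part of the intermediate levels came from CpGs whose strands read very differently. Of 697 CpGs in the members with both strands listed, 62 (8.90%) had strands at least 50 points apart, beside 8.05% of 906052 in the series. Inside promoter sequences 9671 such CpGs could be read, and 9671 (100%) lie in CCGG, against 9.97% of CpGs without such a gap. CCGG is the site cut by MspI, the usual enzyme of RRBS. Whether the reading of the higher strand is methylation of the genome or arises in library preparation was not tested, so levels at these CpGs may not be methylation. Over the series the lower strand had a median of 8.41% and the higher strand of 97.1%. The mean of the higher strand was 93.6%, 87.8% and 89.8% in CSDS libraries and 94.0%, 95.5% and 94.8% in Control libraries. In Tnp1 4 CpGs were of this kind, 3 of them within the sequence printed above. Without them the level of Tnp1 was 12.1% ± 1.3 in CSDS and 15.9% ± 2.75 in Control (SD, n = 3 each), against 24.8% ± 0.612 and 28.2% ± 1.69 with them. The Zpbp2 start was 2.46% ± 1.62 in CSDS and 4.22% ± 0.859 in Control without them, and the mean of Slc25a31 over the 6 libraries was 17.7% in place of 24.9%. Leaving these CpGs out changed no call and no direction of a named member. This alternative was chosen after the data were seen.

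**Figure D3:**
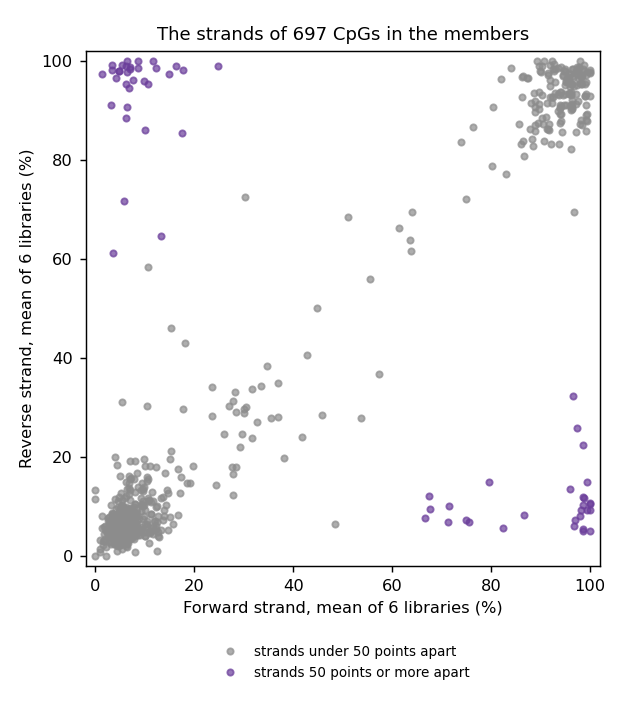
Mean percent over 6 libraries on the reverse strand (vertical axis) against the forward strand (horizontal axis), both linear, for 697 CpGs of the members with both strands listed. Grey points are CpGs whose strands lie under 50 points apart and purple points the 62 that lie at least 50 points apart, which form separate clusters at the upper left and lower right.

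No member was called as different between CSDS and Control in the tests over the whole table. Gene regions (the gene and 1 kb either side), start windows and the remainders of genes outside the start window were tested separately by a quasi-binomial logistic model. A call needed an adjusted p under 0.05 and a difference of at least 10 points. Called were 0 of 30 members (background 0%), 0 of 21 start windows (background 0%) and 0 of 24 remainders (background 0%), and limma on logit levels also called 0 of each. The lowest adjusted p of a member was 0.143 for gene regions, 0.151 for start windows and 0.187 for remainders. Without CSDS replicate 1 the test called 272 gene regions of the series and 1 member, Slc25a31, and 355 start windows with the same member.

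At an unadjusted p under 0.05, 6 of 30 gene regions were lower in CSDS (Catsper2, Slc25a31, Tekt2, Tssk3, Gapdhs and Tbpl1), against 30.4% of all gene regions. None was higher, against 0.0661%. Of 21 start windows 5 were lower (background 30.7%) and 0 higher (background 0.0501%), and of 24 remainders 3 were lower (background 19.2%) and 0 higher (background 0.273%). By their means 26 of 30 gene regions were lower in CSDS (background 89.3%), as were 17 of 21 start windows (background 91.5%) and 18 of 24 remainders (background 80%). The higher 4 gene regions were those of Acr, Catsper1, Tssk1 and Dpy19l2. In 10 of 30 gene regions every CSDS library lay below every Control library (background 31%), and in 1, Dpy19l2, every CSDS library lay above (background 0.601%). The first count was 18 without CSDS replicate 1. Among start windows 6 lay apart with CSDS lower (background 32%) and 0 with CSDS higher (background 0.523%), and among remainders 5 (background 21%) and 1, Dpy19l2 (background 1.12%). The counts lower in CSDS are near or below the shares of all genes.

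The differences followed the level of the gene as in the whole series. The 5 members under 20% had a median difference of −3.40 points, beside −3.39 points for 8118 genes of that range. The 12 members from 20 to 80% had −3.22 points, beside −2.73 points for 13353 genes. The 13 members over 80% had −0.42 points, beside −0.77 points for 7295 genes. Over all 30 the median was −2.26 points, beside −2.66 points for all genes.

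After the mitochondrial correction 21 of 30 gene regions were lower in CSDS by their means (background 62.9%), 13 of 21 start windows (background 58.7%) and 15 of 24 remainders (background 64.9%). The median over the 30 members was −0.31 points, beside −0.42 points for all genes. Every CSDS library then lay below every Control library in 2 gene regions, Spata16 and Slc25a31 (background 9.12%), and above in 2, Dpy19l2 and Crem (background 2.97%). Among start windows this left 1 lower, Slc25a31 (background 8.03%), and 2 higher, Zpbp2 and Crem (background 3.9%). Among remainders it left 2 lower, Spata16 and Zpbp2 (background 9.93%), and 1 higher, Dpy19l2 (background 2.58%). When the share at housekeeping starts was used for the correction, 15 of 30 were lower.

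**Figure D4:**
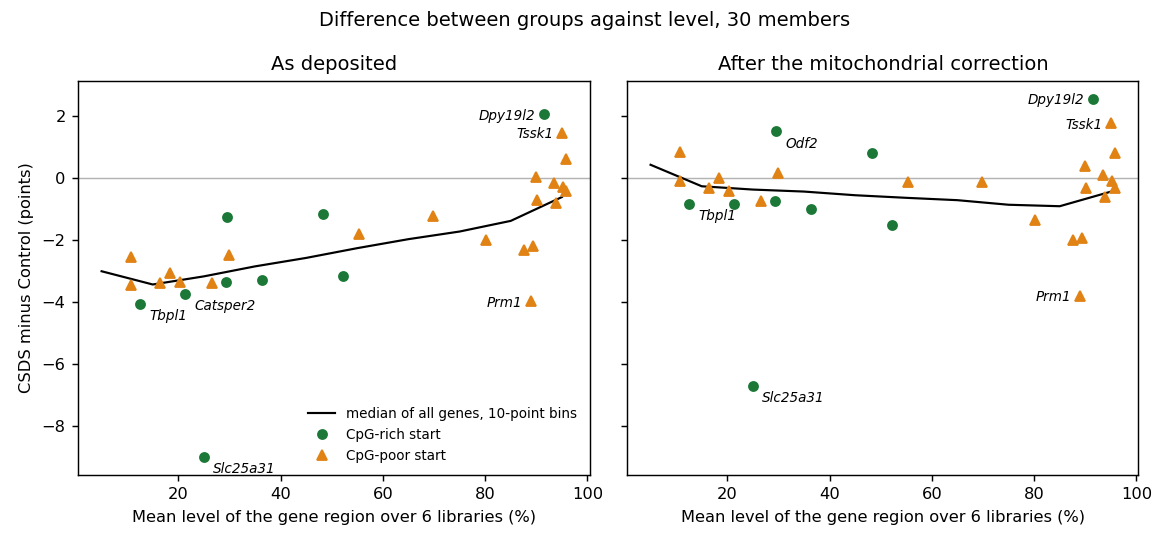
Difference of the gene region level, CSDS minus Control in points (vertical axis), against its mean level over 6 libraries (horizontal axis) for 30 members, as deposited on the left and after the mitochondrial correction on the right. Green circles have CpG-rich and orange triangles CpG-poor starts, and the black line is the median of all 28766 genes in 10-point bins; most members lie near the line, with Slc25a31 below it at −9.0 points as deposited and −6.71 points corrected.

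No single cytosine of the members was called. In the whole series 511 of 2187544 tested cytosines were called (0.0234%), and 0 of 1627 in the members. The lowest adjusted p of a member cytosine was 0.128. At an unadjusted p under 0.05, 176 member cytosines were lower in CSDS (background 9.74%) and 14 higher (background 1.02%). The libraries were apart with CSDS lower at 185 cytosines (background 10.6%) and higher at 20 (background 1.74%). After the mitochondrial correction these counts were 95 (background 5.48%) and 99 (background 5.8%).

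The member cytosines of smallest unadjusted p were spread over several genes. At Tssk3, chromosome 4 position 129491386 on the reverse strand, the level was 23.5%, 12.6% and 16.2% in CSDS and 43.9%, 38.1% and 36.7% in Control, from 82 to 139 reads a library. No CSDS library reached the lowest Control library, the difference was −22.1 points as deposited (unadjusted p = 0.000228), and −21.0 points corrected. This cytosine is near the start of Fam229a as well. At Tssk3 position 129491462, reverse strand, the values were 0%, 2.86% and 0% in CSDS and 10.3%, 10.2% and 17.3% in Control. A count of 0 reads with C allows a share of up to 4.69% in CSDS replicate 1 and 2.80% in CSDS replicate 3, for counting error only. At Tssk6 position 69903022, forward strand, all CSDS libraries read 0%, with limits of 3.19%, 4.11% and 5.17%, and Control libraries read 8.79%, 15% and 8.60%. At Crem, chromosome 18 position 3337193, forward strand, all CSDS libraries again read 0%, with limits of 4.23%, 2.56% and 3.85%, and Control libraries read 5.88%, 11.7% and 9.09%. The Control means of 10.8% at the Tssk6 and 8.90% at the Crem cytosine lie near the mean mitochondrial share of Control, 9.26% (5.81% in CSDS). Corrected, the differences were −7.89 and −5.81 points. Whether these low readings are methylation was not tested. At Odf2 position 29889823, forward strand, the values were 71.7%, 26.5% and 55.6% in CSDS and 80%, 83.8% and 88.1% in Control, a difference of −32.7 points. On the other strand of this CpG the level was 13.9% ± 6.43 in CSDS and 4.98% ± 4.48 in Control (SD, n = 3 each), so this is a CpG with strands far apart, and the limit on such readings applies.

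Of the 20 member cytosines that were higher in every CSDS library, the 5 of smallest p lay in Dpy19l2, Tssk1, Klhl10 and Catsper3. In the body of Dpy19l2, chromosome 9 position 24602179, forward strand, the level was 76.6%, 85.7% and 92.1% in CSDS and 56.9%, 69.2% and 68.6% in Control, from 52 to 109 reads a library. The difference was +19.9 points as deposited (unadjusted p = 0.00121, adjusted p = 0.199), and +22.4 points corrected. At Tssk1 positions 17895182 and 17895307 the differences were +18.1 and +8.73 points, with 16 to 39 reads and 66 to 84 reads a library. Klhl10 position 100442121 averaged 98.1% ± 1.66 in CSDS and 88.2% ± 5.27 in Control, and Catsper3 position 55810036 averaged 100% in CSDS, the same in each library, and 93.4% ± 4.11 in Control (SD, n = 3 each). None of these passed the test over all cytosines.

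Further genes of spermatids and sperm, a list of 73 of which 62 were measured, were also mostly lower in CSDS by their means, as were 89.3% of all genes. Of the 62, 59 were lower in CSDS and 3 higher, with a median difference of −2.45 points, and −0.77 points after the mitochondrial correction, when 44 were lower. At an unadjusted p under 0.05, 19 were lower and 0 were called. Among gene regions the largest difference was at H1f7, the spermatid linker histone, with 15.9%, 18.7% and 13.7% in CSDS and 23.2%, 25.9% and 21.9% in Control over 27 cytosines. Its groups were apart as deposited (−7.59 points, unadjusted p = 0.0144, adjusted p = 0.143), and overlapped after the mitochondrial correction (−5.01 points). Pdha2, a testis pyruvate dehydrogenase subunit, averaged 17.5% ± 6.11 in CSDS and 24.0% ± 2.69 in Control. Catsperg1, an auxiliary CatSper subunit, averaged 19.6% ± 3.01 and 26.0% ± 3.29 (SD, n = 3 each), with groups apart after the correction too (−3.75 points). The genes that were higher in CSDS were Spaca4 (+2.62 points), Catsperg2 (+1.39 points) and Spata20 (+0.22 points), all with overlapping libraries as deposited.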

How the data were processed

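Genomic DNA of male germ cells was extracted with a column kit and made into Zymo-Seq RRBS libraries, per the labels. The submitters' processing notes name Trim Galore 0.5.0, Bismark 0.20.0 and the build GRCm38. The bisulfite conversion rate and the handling of duplicates are not given in the sources used here. The authors' tables hold, per the file headers, a read count (coverage) for every cytosine. Beside it stands the deposited percent showing C and the percent showing T. The deposited percent times the count was whole to within 8.7e-11. No listed cytosine has fewer than 10 reads. No molecular identifiers are named in the labels, and intervals and limits therefore cover counting error only. Groups and replicates follow the titles.

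Cytosines listed in all 6 libraries were used (2210988 of 3348459), with strands apart and 1-based GRCm38 positions. Gene positions and promoter sequences are those of RefSeq on GRCm38.p6. The start was the outermost promoter start on the gene's strand for 35 of the 40 members. For Acr, Catsper1, Odf1, Oaz3 and Crem it was the gene end with more listed cytosines, and the class was CpG-rich with at least 20 listed cytosines within 250 bases. Exons and untranslated regions were not separated. Levels were fitted by a quasi-binomial logistic model, weighted by reads, with dispersions shrunk as in squeezeVar of limma 3.58.1 and never below 1. Its F test was adjusted by Benjamini-Hochberg over all features of a kind. A single comparison of 3 against 3 libraries cannot go below an exact two-sided permutation p of 0.1, and none is given. The model was run on simulated data with independent noise for each gene and library. No shift common to a whole library was simulated, so that run does not cover the library-wide shifts seen here. Computations used Python 3.11.15, numpy 2.4.6, scipy 1.17.1 and pandas 2.3.3.

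The members and gene lists were chosen with earlier results of these data known. All measured members are named. Values per library are given for called members, the 2 of largest difference in each of 7 role groups, the 2 highest and 2 lowest starts of each class and members whose groups are apart after the mitochondrial correction. Cytosines named are the 5 each way of smallest p with groups apart, and of the other spermatid genes the 3 each way of largest difference. Alternatives tried are the weighting, coverage, strands, flanks, corrections, test, left-out libraries and replicate block.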

Additional observations from a re-analysis of the deposited data

How the results depend on the processing

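Under reads summed over cytosines, a coverage minimum of 20, no cytosines in the top 0.1% of coverage, merged strands, at least 5 cytosines, flanks of 500 bp or 2 kb, the mitochondrial correction and limma on logit levels, 0 gene regions, 0 start windows and 0 remainders were called, as in the main test. The housekeeping correction called 1 remainder, not a member. With each library left out in turn the calls ran from 0 to 272 gene regions, 0 to 355 start windows and 0 to 118 remainders, with 0 to 1 members called in the first 2 kinds, all calls coming without CSDS replicate 1. Called cytosines, 511 in all, were 805 with a coverage minimum of 20, 0 after the mitochondrial correction and 0 to 591 with a library left out (0 without Control replicate 2, 4 without Control replicate 3, 24 without CSDS replicate 2 and 52 without CSDS replicate 3). The count of members lower in CSDS was 15 of 30 after the housekeeping correction.

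The median difference of the CpG-rich starts of members was −0.90 points after the mitochondrial and −0.18 points after the housekeeping correction, and −5.51 to −2.55 points with a library left out. That of the CpG-poor starts was +0.23 points after the housekeeping correction and −3.18 to −0.63 points with a library left out. The mitochondrial correction turned the sign of gene regions at Odf2 (+1.5), Crem (+0.84), Zpbp2 (+0.82), Dpep3 (+0.18) and Catsper3 (+0.097), and of start windows at Odf2 (+2.11), Crem (+1.06), Zpbp2 (+2.56) and Dpep3 (+0.18). The housekeeping correction turned gene regions at Gapdhs (+0.39), Tssk6 (+0.65), Tssk3 (+0.24), Odf2 (+2.19), Zpbp (+0.13), Crem (+1.65), Meig1 (+0.70), Zpbp2 (+1.3), Dpep3 (+0.80), Klhl10 (+0.23) and Catsper3 (+0.15), and start windows at Odf2 (+2.99), Crem (+1.90), Zpbp2 (+3.42), Tssk6 (+0.58) and Dpep3 (+0.80). The Tssk1 start turned to −5.04 points with a coverage minimum of 20 and to −0.25 points with merged strands. Left-out libraries gave −1.73 to +0.48 points at Catsper4, −4.11 to +0.33 at the Odf2 start and −1.89 to +0.0047 at the Zpbp2 start. The cause of these turns was not tested.

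Same-numbered replicates did not deviate together (correlations of −0.085, −0.096 and −0.001). The labels do not say whether the numbers pair the libraries, and with 3 libraries a group these values cannot exclude it. With the replicate number as a block 0 gene regions, 0 start windows, 0 remainders and 0 cytosines were called. RRBS coverage limits what can be seen, since 10 members had fewer than 3 cytosines in all libraries, and levels of 3 to 6 cytosines rest on few reads.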
